A study of Homo sapiens with 6 samples.

Results

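The genes described here are the kinases, transcription factors and inhibitors of the JAK-STAT pathway, 10 genes chosen by name from the 58735 genes of the deposited table: JAK1, JAK2, TYK2, STAT3, STAT5A, STAT5B, STAT6, SOCS2, SOCS3 and PIAS3. Each name matched a single row, and all 10 passed the filter on low counts that left 15242 genes for testing. RNA from MDA-MB-231 cells, an established human cell line of triple-negative breast cancer, was sequenced in 3 libraries of parent cells (genotype WT) and 3 libraries of Adriamycin-resistant (ADRr) cells (genotype ADR resistant). Both were kept in DMEM with serum and antibiotics. Adriamycin, also called doxorubicin, is an anthracycline that damages DNA. According to the study's methods, the ADRr line was grown out under stepwise higher Adriamycin concentrations and then isolated by limiting dilution, so it stands for single-cell-derived clones and not for the surviving population. The series record speaks of time points, but the sample labels carry none, and the 3 libraries of each line are taken here as its replicates. Whether the drug was in the medium at harvest is not given in the sources used here. The labels do not say that the libraries came from separate cultures, so the p-values measure the spread between these libraries, which may be technical.

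Janus kinases (JAKs) sit on the inner side of cytokine receptors, and when a ligand brings the receptor chains together they phosphorylate each other, the receptor and the STAT proteins docked on it. Phosphorylated STATs pair, move to the nucleus and bind DNA at short palindromic sites. Among the genes that they switch on are the SOCS inhibitors, which bind kinases or receptors and close the loop, while PIAS proteins hold STATs in check in the nucleus. RNA sequencing counts transcripts and does not show phosphorylation.

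Total counts per library ran from 15983985 to 18272314. The mesenchymal genes VIM, CD44, CAV1, AXL and MSN, which mark this line, summed to 4551 to 4725 CPM (counts scaled to a common library size) in parent and 4062 to 4091 CPM in ADRr libraries. Within that sum CD44 rose by 0.80 on the log2 scale, VIM, CAV1 and AXL fell by 0.56, 1.30 and 0.62, and MSN, at 0.13, was under the fold required below for a call (edgeR adjusted p = 2.22e-13, 4.36e-10, 2.68e-16, 2.31e-11 and 0.0184). The hormone receptor genes ESR1 and PGR had at most 1 count and 0 counts, and ERBB2 had 111.7 to 129 CPM in parent and 49.5 to 54.4 CPM in ADRr libraries. Of 10 leukocyte markers, 7 lay under 1 CPM in every library, PTPRC among them, and the list summed to 59.4 to 65.2 CPM in parent and 91.3 to 96.6 CPM in ADRr libraries, mostly from LAPTM5. LAPTM5 was higher (log2 0.68, edgeR adjusted p = 2.73e-09) and CSF1R lower (log2 -1.31, edgeR adjusted p = 1.12e-04). CD14 did not pass (log2 -0.16, edgeR adjusted p = 0.458). TYROBP was at 0 throughout. Of the epithelial genes, CDH1 went from 13.1 to 16.2 CPM in parent to 5.91 to 8.21 CPM in ADRr libraries and EPCAM from 9.51 to 14.9 CPM to 26.7 to 27.6 CPM. Of the 4 fibroblast markers, DCN was at 0 throughout, and the list summed to 92.4 to 96.4 CPM in parent and 28.2 to 31.5 CPM in ADRr libraries, with PDGFRB at 59.6 to 63.7 and 7.84 to 9.19 CPM. The part of these shifts in the results below was not tested. In bulk RNA, fewer cells that express a gene and less of its RNA per cell cannot be told apart.

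The study lists small interfering RNAs (siRNAs) against STAT3 and JAK2. It describes silencing of JAK2 in other experiments and measured JAK2 with a primer pair. None of the 6 libraries came from silenced cells. The oligonucleotides are shown because they say which transcripts those reagents read. The capitals in each siRNA guide strand mark the seed, bases 2 to 8, and the capitals in the forward primer mark the bases that lie in the next exon.
STAT3 siRNA guide strand: uCAUGGGUcucagagaaca
JAK2 siRNA guide strand: uUGCUUGCuuaauacugac
JAK2 forward primer: tttgctgtcgagCGAGAAAAT
JAK2 reverse primer: tgagcgaacagtttccatctg
In the GENCODE 29 annotation (GRCh38) the STAT3 siRNA matched the 3' UTR in exon 24 of transcript STAT3-201, at chr17:42315501-42315519 on the minus strand, and 5 of the 14 annotated STAT3 transcripts hold the site. The JAK2 siRNA matched coding sequence in exon 8 of JAK2-201, at chr9:5055708-5055726 on the plus strand, which 2 of 4 annotated JAK2 transcripts hold. The primer pair spans exons 10 and 11 of JAK2-201 and gives a product of 150 bases. The counts of the present libraries are summed over each gene's whole exon length, so they do not separate these transcripts.

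Of the 10 genes, 5 were higher in ADRr cells (JAK1, STAT3, STAT5A, STAT6, SOCS2), 3 were lower (TYK2, SOCS3, PIAS3), and JAK2 and STAT5B did not pass the test. To be called, a gene needed an adjusted p no higher than 0.05 (edgeR's quasi-likelihood test, Benjamini-Hochberg over all 15242 genes) and a 1.2-fold or larger difference, up or down. Many genes differed between these lines: 29.2% of all tested genes were called higher, 29.6% lower and 58.8% in either direction, so 8 of 10 called has to be read against that share. In 8 of the 10 genes the parent and ADRr ranges were separate, with every ADRr library above every parent library for 5 and below for 3. Across all tested genes the groups did not overlap for 69.2%, with ADRr above for 34.5% and below for 34.7%. The median log2 fold change was 0.35 over the 10 genes and -0.01 over all genes, and the median absolute change was 0.61 and 0.46.

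**Figure D1:**
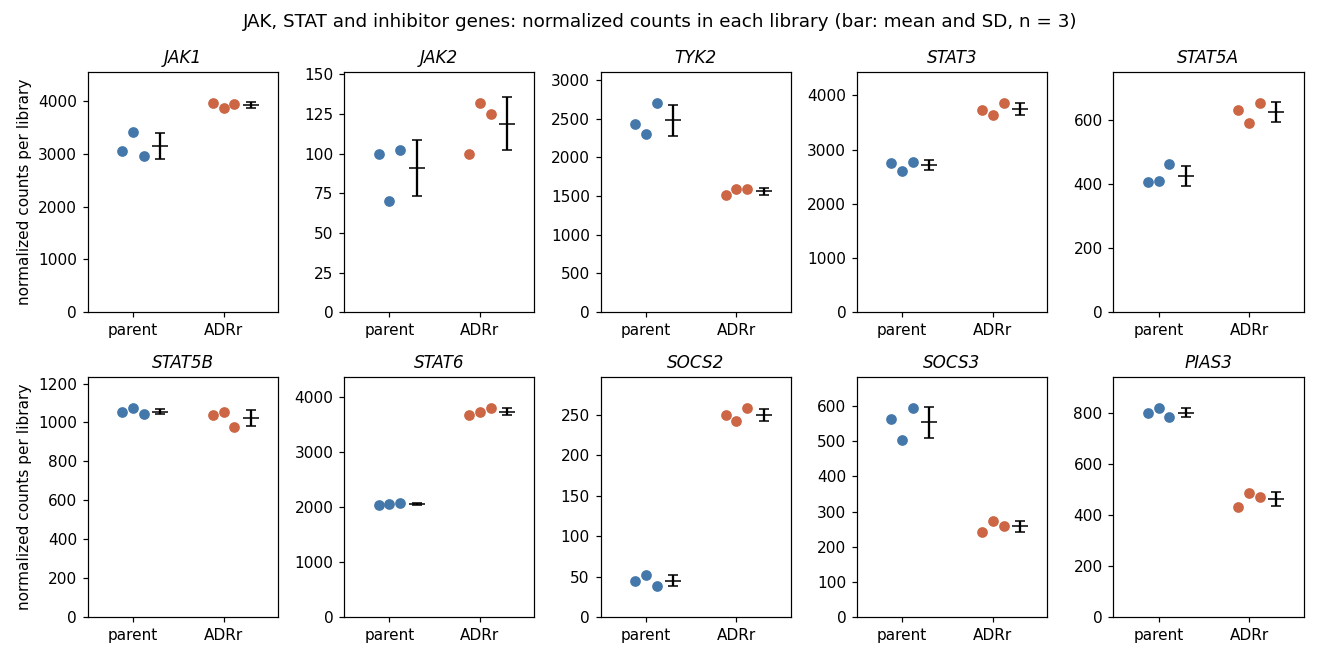
Normalized counts (vertical axis, from 0) of the 10 genes in the 3 parent and 3 ADRr libraries; each point is a library and the bar beside it gives the mean and SD of the group. The groups stand apart for every gene but JAK2 and STAT5B, and SOCS2 has the widest gap as a ratio, from 39.0 to 51.9 in parent to 242.8 to 257.8 in ADRr libraries.

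JAK1, the kinase shared by the interferon, IL-6 and common gamma chain receptors (ENSG00000162434, chr1:64833229-64966504, minus strand), had 2967, 3162 and 3038 counts in the parent libraries and 4161, 3698 and 4225 in the ADRr libraries. After normalization all ADRr libraries were above all parent libraries, at 3870 to 3960 against 2959 to 3421. The increase was small, 1.25-fold (95% confidence interval 1.15 to 1.35; log2 0.32 ± 0.06 SE; edgeR adjusted p = 2.83e-05).

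TYK2, the kinase that pairs with JAK1 or JAK2 on interferon, IL-10 and IL-12 family receptors (ENSG00000105397, chr19:10350529-10380676, minus strand), moved the other way. It had 2368, 2127 and 2774 counts in parent and 1589, 1520 and 1702 in ADRr libraries, without overlap. The log2 fold change was -0.67 ± 0.06 (SE; edgeR adjusted p = 2.75e-09), or 1.59-fold lower.

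JAK2, the kinase of the erythropoietin, growth hormone and prolactin receptors and of many IL-6 family signals (ENSG00000096968, chr9:4984390-5128183, plus strand), had few reads. Its counts were 97, 65 and 105 in parent and 105, 126 and 134 in ADRr libraries. Once normalized, the lowest ADRr library (99.9) lay between the parent libraries (70.3 to 102.3), so the groups overlapped. The fitted change was 1.30-fold (95% confidence interval 1.01 to 1.68; log2 0.38 ± 0.18 SE), and the edgeR adjusted p was 0.061. JAK2 passed with library size alone in place of TMM scaling (edgeR adjusted p = 0.0449), without parent library 3 (log2 0.47, edgeR adjusted p = 0.0315) and without ADRr library 1 (log2 0.51, edgeR adjusted p = 0.0259). Without parent library 2, the lowest of the parent libraries, its log2 fold change was 0.23 (edgeR adjusted p = 0.253), and on the log2(FPKM + 1) scale it was 0.19 (limma adjusted p = 0.158). Over all 15 alternatives its adjusted p ran from 0.0259 to 0.276.

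JAK3, the partner of JAK1 on common gamma chain receptors and mainly a kinase of lymphoid cells, completes the family. It had 26, 44 and 40 counts in parent and 17, 10 and 11 in ADRr libraries and was lower (log2 -1.60 ± 0.36 SE, edgeR adjusted p = 4.11e-04). Per length, in FPKM (fragments per kilobase of gene, scaled to the reads of the library), the 4 kinases summed to 50.5 ± 0.953 in parent and 50.1 ± 0.501 in ADRr cells (SD, n = 3), a difference smaller than either SD. Within that sum JAK1 went from 56.3 ± 3.78% to 71.1 ± 0.915% and TYK2 from 41.4 ± 3.55% to 26.4 ± 0.663% (SD, n = 3). JAK2 made up 1.67 ± 0.348% and 2.21 ± 0.307%.

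STAT3, the main STAT of IL-6 family cytokines (ENSG00000168610, chr17:42313324-42388568, minus strand), had 2679, 2407 and 2849 counts in parent and 3931, 3470 and 4130 in ADRr libraries. The lowest normalized ADRr value, 3631, was above the highest parent value, 2775. The rise was 1.38-fold (95% confidence interval 1.28 to 1.49; log2 0.46 ± 0.05 SE; edgeR adjusted p = 5.31e-08). STAT3 ranked 3705th among the increases of the 15242 tested genes.

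STAT6, the STAT of IL-4 and IL-13 (ENSG00000166888, chr12:57095408-57132139, minus strand), rose further. It had 1985, 1902 and 2138 counts in parent and 3858, 3565 and 4060 in ADRr libraries, with no overlap and a spread of 0.973% and 1.61% (coefficient of variation) within the groups. The fold change was 1.81 (95% confidence interval 1.68 to 1.95; log2 0.86 ± 0.05 SE; edgeR adjusted p = 1.21e-12). LRP1, an endocytic receptor gene on the opposite strand, shares 59 exonic bases with STAT6 and was lower (log2 -1.10 ± 0.06 SE, edgeR adjusted p = 8.58e-13). NAB2, a repressor of EGR transcription factors, shares 69 exonic bases at the other end and was higher (log2 0.37 ± 0.11 SE, edgeR adjusted p = 0.00553). The strand setting of the counting is not given in the sources used here.

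STAT5A and STAT5B, the paralogs that answer to prolactin, growth hormone and IL-2 family cytokines, differed in their calls. STAT5A (ENSG00000126561, chr17:42287547-42311943, plus strand) had 396, 377 and 473 counts in parent and 663, 564 and 698 in ADRr libraries, without overlap, a 1.47-fold rise (95% confidence interval 1.30 to 1.66; log2 0.55 ± 0.08 SE; edgeR adjusted p = 4.85e-06). STAT5B (ENSG00000173757, chr17:42199168-42276707, minus strand) had 1023, 991 and 1071 counts in parent and 1090, 1006 and 1047 in ADRr libraries. The STAT5B groups overlapped after normalization, and its fold of 0.968 (95% confidence interval 0.883 to 1.06; log2 -0.05 ± 0.06 SE; edgeR adjusted p = 0.54) has its upper bound under the lower bound of STAT5A. In FPKM the ratio of STAT5A to STAT5B within a library was 0.434, 0.426 and 0.495 in parent and 0.682, 0.628 and 0.747 in ADRr libraries. These ranges do not overlap, and the exact permutation p was 0.1, the smallest that 3 against 3 libraries allow.

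The coding sequences of these paralogs are close enough that reads can match both, which is why stretches of each are printed. Over 2345 aligned coding bases of STAT5A-201 and STAT5B-201, 88.9% were identical, and the longest identical run was 429 bases. The first lines show the window of 60 bases where they differ most, with the 21 differing bases in capitals, and the last line shows the first 100 bases of the identical run, without capitals.
STAT5A most different window: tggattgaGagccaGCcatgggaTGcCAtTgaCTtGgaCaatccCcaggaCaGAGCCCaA
STAT5B most different window: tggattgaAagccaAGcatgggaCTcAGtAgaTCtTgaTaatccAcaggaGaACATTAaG
STAT5A and STAT5B identical stretch: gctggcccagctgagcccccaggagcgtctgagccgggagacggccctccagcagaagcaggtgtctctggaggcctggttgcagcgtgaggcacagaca
The different window spans an intron in both genes, at chr17:42289520-42289905 (exons 3 and 4 of STAT5A-201) and chr17:42227646-42232019 (exons 2 and 3 of STAT5B-201). The identical stretch lies in exon 7 of STAT5A-201 (chr17:42299764-42299863) and exon 6 of STAT5B-201 (chr17:42219730-42219829). Of the 4152 stretches of 150 bases in STAT5A-201, the stated read length, 280 (6.74%) occur unchanged in STAT5B-201. How reads that match both were counted is not given in the sources used here. With the counts of both genes summed into 1 row before the fit, the log2 fold change was 0.15 (edgeR adjusted p = 0.0212), under the fold of 1.2.

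STAT5B, STAT5A and STAT3 lie side by side within 189401 bases of chromosome 17, with 10839 bases between STAT5B and STAT5A and 1380 bases between STAT5A and STAT3. STAT3 and STAT5A were called higher, and STAT5B was not called.

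The other STAT genes split as well. STAT2, a STAT of type I interferon signalling, had 1366, 1192 and 1360 counts in parent and 2674, 2452 and 2640 in ADRr libraries and rose 1.88-fold (log2 0.91 ± 0.06 SE, edgeR adjusted p = 2.70e-12). STAT4, the STAT of IL-12, had 34, 34 and 29 counts in parent and 7, 15 and 19 in ADRr libraries and was lower (log2 -1.31 ± 0.37 SE, edgeR adjusted p = 0.00326). STAT4 passed the filter on low counts only through its parent libraries, so its call as lower adds no support.

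In FPKM the ratio of STAT3 to STAT6 was 1.09 ± 0.0368 in parent and 0.831 ± 0.0214 in ADRr libraries (SD, n = 3; exact permutation p = 0.1), so the order of the 2 genes was reversed.

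**Figure D2:**
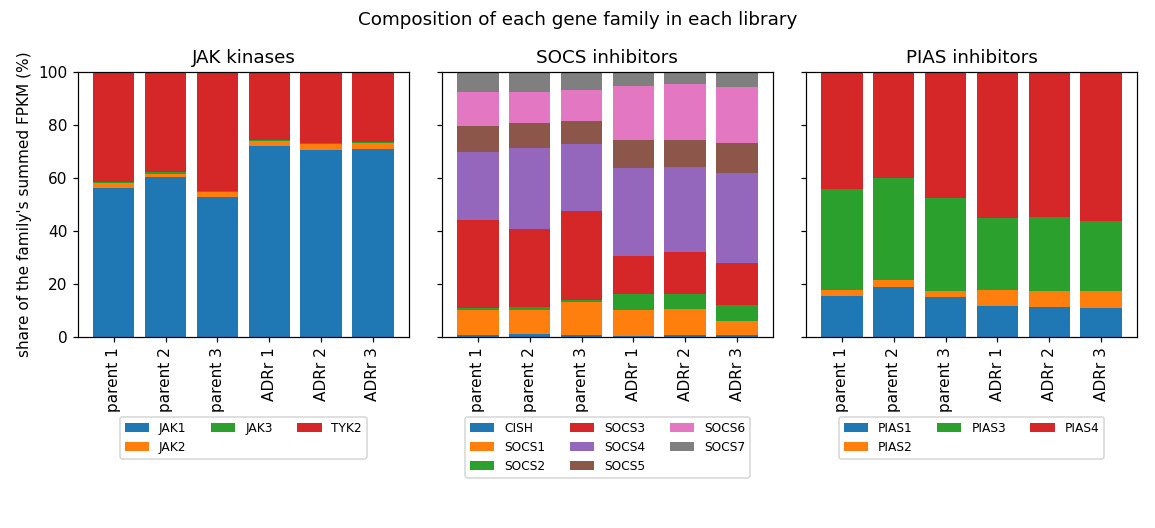
Share of each gene in the summed FPKM of its family (vertical axis, percent) in each of the 6 libraries, for JAK, SOCS and PIAS genes. JAK1 takes 71.1% of the JAK sum in ADRr cells against 56.3% in parent cells, and SOCS3 takes 15.3% of the SOCS sum against 32.1%.

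SOCS2, an inhibitor of growth hormone and other STAT5 signals that is itself switched on by STAT5 (ENSG00000120833, chr12:93569814-93583487, plus strand), had the largest change among the 10 genes. It had 44, 48 and 40 counts in parent and 262, 232 and 276 in ADRr libraries, far apart and with a small spread in the ADRr group. The rise was 5.52-fold (95% confidence interval 4.44 to 6.85; log2 2.46 ± 0.15 SE; edgeR adjusted p = 1.89e-12), the 227th largest increase of the 15242 tested genes. On the log2(FPKM + 1) scale, which understates changes of low genes, the difference was 1.17. SOCS2-AS1, a long non-coding RNA that runs against SOCS2 and shares 277 exonic bases with it (4.09% of the SOCS2 exon length), had 1, 0 and 3 counts in parent and 23, 38 and 43 in ADRr libraries. It passed the same test (edgeR adjusted p = 5.54e-07), which it entered through its ADRr libraries alone. Without the counting strand, reads in the shared bases cannot be assigned to either gene.

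SOCS3, the inhibitor that binds gp130 and JAKs and is a well-known STAT3 target (ENSG00000184557, chr17:78356778-78360077, minus strand), went down. Its counts were 546, 466 and 608 in parent and 253, 261 and 278 in ADRr libraries, with the highest ADRr library well below the lowest parent library. The decrease was 2.15-fold (log2 -1.10 ± 0.09 SE, edgeR adjusted p = 7.21e-10), the 1161st largest of the tested genes. Within each library SOCS3 had 0.657, 0.624 and 0.688 of the STAT3 level in parent cells and 0.207, 0.242 and 0.217 in ADRr cells, as a ratio of FPKM. These groups were far apart and gave the smallest exact permutation p that the design allows, 0.1 (0.117 adjusted over 7 ratios).

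Of the 8 SOCS genes, 3 rose (37.5%), 2 fell (25%) and 3 were not called. Of all tested genes, 29.2% were called higher and 29.6% lower. SOCS6, which targets receptor tyrosine kinases, rose 1.70-fold (log2 0.77 ± 0.08 SE, edgeR adjusted p = 8.49e-09), and SOCS4 rose by 0.27 ± 0.07 on the log2 scale, just above the fold required (SE, edgeR adjusted p = 0.00166). SOCS7 was lower (log2 -0.51 ± 0.10 SE, edgeR adjusted p = 8.17e-05). SOCS5 did not pass (1.13-fold, edgeR adjusted p = 0.0647). SOCS1, an interferon-induced inhibitor, had 102, 95 and 144 counts in parent and 114, 104 and 60 in ADRr libraries, which overlapped (edgeR adjusted p = 0.138). CISH, another STAT5-induced inhibitor, had 13, 23 and 26 against 12, 21 and 19 counts and overlapped too (edgeR adjusted p = 0.472).

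The SOCS sum was 36.0 ± 0.662 FPKM in parent and 35.5 ± 0.650 FPKM in ADRr libraries (SD, n = 3), a difference smaller than either SD. SOCS3 went from 32.1 ± 2.27% to 15.3 ± 0.890% of the sum, SOCS6 from a range of 11.5 to 12.7% to one of 20.4 to 21.2%, and SOCS2 from 1.07 ± 0.167% to 5.97 ± 0.306%.

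PIAS3, the PIAS protein that binds STAT3 and blocks its contact with DNA (ENSG00000131788, chr1:145848522-145859836, minus strand), had 779, 756 and 806 counts in parent and 454, 464 and 503 in ADRr libraries. The groups stood far apart. PIAS3 was 1.73-fold lower (log2 -0.79 ± 0.08 SE, edgeR adjusted p = 5.51e-09). NUDT17, a NUDIX hydrolase gene on the other strand, shares 432 exonic bases with PIAS3 (8.99% of its exon length), had 83 to 104 counts per library and was not called (log2 0.04 ± 0.17 SE, edgeR adjusted p = 0.846). PIAS1, another PIAS inhibitor, was lower too (log2 -0.89 ± 0.09 SE, edgeR adjusted p = 5.02e-09). PIAS2 rose 2.01-fold (edgeR adjusted p = 3.99e-08), and PIAS4 did not pass (0.992-fold, edgeR adjusted p = 0.914). The PIAS sum went from 25.5 ± 0.739 to 20.2 ± 1.16 FPKM (SD, n = 3).

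**Figure D3:**
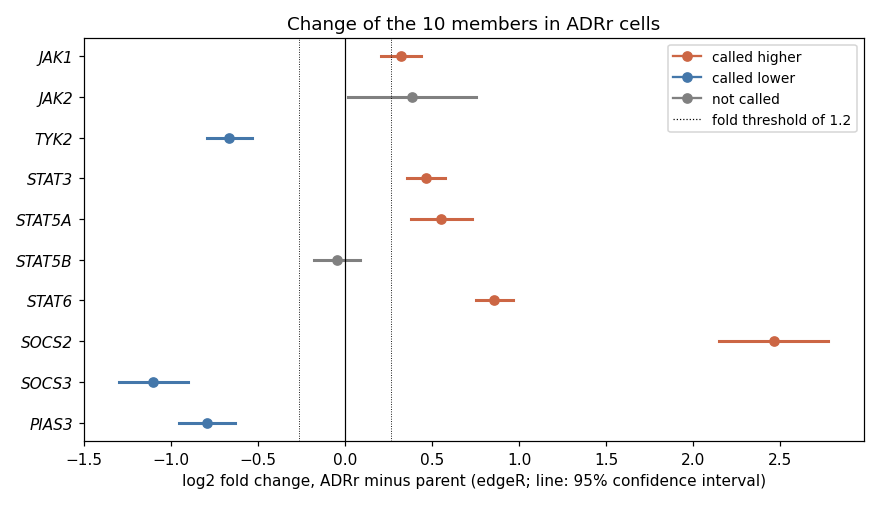
Log2 fold change of each of the 10 genes, ADRr minus parent, with its 95% confidence interval from edgeR (horizontal axis); dotted lines mark a fold of 1.2 either way. The intervals of SOCS2 (2.15 to 2.78) and SOCS3 (-1.30 to -0.91) lie farthest from 0, and that of STAT5B (-0.18 to 0.09) holds 0.

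Levels of different genes can be compared only per length. In parent cells the order by mean FPKM was JAK1 (28.5 ± 2.21), TYK2 (20.9 ± 1.69), STAT3 (17.6 ± 0.618), STAT6 (16.1 ± 0.113), SOCS3 (11.6 ± 0.930), PIAS3 (9.54 ± 0.206), STAT5B (9.36 ± 0.137), STAT5A (4.23 ± 0.294), JAK2 (0.841 ± 0.165) and SOCS2 (0.383 ± 0.0550), each with its SD over 3 libraries. PIAS3 and STAT5B overlapped, and the other neighbours in this order did not. In ADRr cells the order was JAK1 (35.6 ± 0.526), STAT6 (29.3 ± 0.514), STAT3 (24.4 ± 0.804), TYK2 (13.2 ± 0.379), STAT5B (9.10 ± 0.329), STAT5A (6.22 ± 0.330), PIAS3 (5.52 ± 0.322), SOCS3 (5.41 ± 0.333), SOCS2 (2.12 ± 0.0695) and JAK2 (1.11 ± 0.156). There PIAS3 and SOCS3 overlapped and the other neighbours did not. TYK2 thus fell from the second place to the fourth, STAT6 rose from the fourth to the second, and SOCS2 and JAK2 changed places at the bottom.

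**Figure D4:**
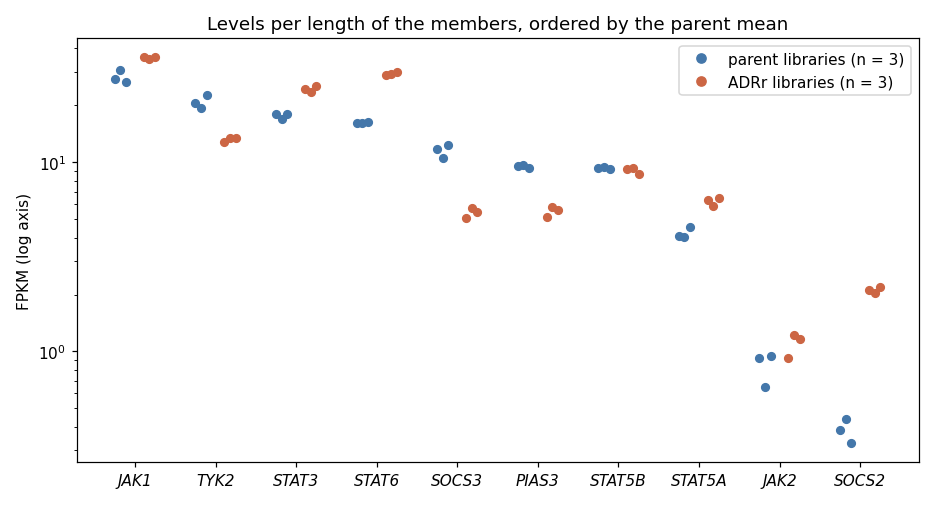
FPKM of the 10 genes in each library on a log axis, ordered by the parent mean; blue points are parent and orange points ADRr libraries. JAK1 is highest in both groups (28.5 and 35.6 FPKM on average), and JAK2 and SOCS2 lie lowest in both.

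Of the 7 ratios formed within a library, 6 did not overlap between the groups and had an exact permutation p of 0.1 (0.117 adjusted over the 7), which no 3 against 3 comparison can go below. Each of these 6 holds a gene whose groups were already separate, and 69.2% of all tested genes did not overlap, so they largely restate the calls. JAK1 to TYK2 went from 1.37 ± 0.211 to 2.69 ± 0.103, STAT3 to STAT5B from 1.88 ± 0.0902 to 2.68 ± 0.185, and SOCS2 to STAT5B from 0.0408 ± 0.00528 to 0.233 ± 0.0161 (SD, n = 3). JAK1 to JAK2 did not separate the groups, at 29.9, 47.5 and 28.3 in parent and 38.7, 28.7 and 30.8 in ADRr libraries (exact permutation p = 0.9).

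The wider pathway was described with a list of 79 genes, of which 65 could be tested: 31 were higher (47.7%), 16 lower (24.6%) and 18 not called, with a median log2 fold change of 0.27. Leaving out the 10 genes above, 26 of 55 tested genes were higher (47.3%) and 13 lower (23.6%), with a median of 0.24. For all tested genes these shares are 29.2% and 29.6%, which also hold beside the counts of each list below. The list was chosen with earlier results of these data known. Genes such as IFNL1, IL7, IL6R, IL2RG and IL10RB passed the filter on low counts only through ADRr libraries, and all were called higher. CNTF and STAT4 passed it only through parent libraries, and both were called lower. The shares describe this list and are no independent test of the pathway.

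Ligands had the highest median of the role lists. Of 17 ligand genes, 12 were tested, 8 were higher, 2 lower and 2 not called, and their median log2 fold change was 1.22. The median includes IL7, with 4, 2 and 0 counts in parent and 11, 13 and 17 in ADRr libraries, and IFNL1. Both passed the filter on low counts only through ADRr libraries, so their calls as higher add no support. CNTF, called lower, passed it through its parent libraries. IL24, a cytokine of the IL-10 family that signals through STAT3, had 138, 161 and 150 counts in parent and 18303, 16656 and 17849 in ADRr libraries, a 112-fold rise (edgeR adjusted p = 7.94e-26). IFNL1, a type III interferon, had 3, 0 and 0 counts in parent and 35, 25 and 45 in ADRr libraries (edgeR adjusted p = 4.70e-07), too few in parent cells for a fold. For both, every ADRr library was far above every parent library. CNTF, ciliary neurotrophic factor, with 24, 10 and 18 against 8, 6 and 12 counts, overlapped between groups and was lower (log2 -1.06 ± 0.44 SE, edgeR adjusted p = 0.0402). CSF3, the granulocyte growth factor, was lower as well (log2 -0.55 ± 0.09 SE, edgeR adjusted p = 2.10e-05).

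Of 29 receptor genes, 21 were tested, 9 were higher, 5 lower and 7 not called (median log2 0.21). IL6R, the binding chain of the IL-6 receptor, had 13, 5 and 13 counts in parent and 181, 167 and 179 in ADRr libraries and rose 16.0-fold (95% confidence interval 11.4 to 22.5, edgeR adjusted p = 1.16e-12). IL2RG, the common gamma chain, had 4, 3 and 9 against 115, 83 and 121 counts (log2 4.21 ± 0.32 SE, edgeR adjusted p = 9.26e-11). Neither gene had more than 13 counts in a parent library, and both passed the filter on low counts only through their ADRr libraries. The same holds for IL10RB, also called higher. The calls of IL6R, IL2RG and IL10RB as higher thus add no support. IL11RA, the IL-11 receptor, had 31, 42 and 71 against 15, 12 and 14 counts (log2 -1.87 ± 0.34 SE, edgeR adjusted p = 4.86e-05), and PRLR, the prolactin receptor, was lower by -1.21 ± 0.16 on the log2 scale (SE, edgeR adjusted p = 5.02e-07). IL6 and its signalling chain IL6ST (gp130), named after their values were seen, rose 3.93-fold and 1.72-fold (edgeR adjusted p = 7.06e-19 and 3.26e-12).

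Among 10 phosphatases and adaptors, 9 were tested, 5 rose, 2 fell and 2 were not called. STAM2, an endosomal adaptor that binds JAKs, rose 1.53-fold (edgeR adjusted p = 1.61e-07), and SH2B3 (LNK), a brake on JAK2 signalling, rose 1.48-fold (edgeR adjusted p = 4.51e-09). SH2B1, an activator of JAK2, was lower (log2 -0.79 ± 0.09 SE, edgeR adjusted p = 4.92e-08), as was PTPN1, the phosphatase PTP1B that acts on JAK2 and TYK2 (log2 -0.46 ± 0.05 SE, edgeR adjusted p = 4.83e-08).

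Genes known as STAT targets moved in both directions, as did all tested genes (29.2% called higher and 29.6% lower). Of 20 STAT3 targets, 18 were tested, 10 rose (55.6%), 4 fell (22.2%) and 4 were not called (median log2 0.46). STAT3 and SOCS3, described above, are among the 18. MMP9, a matrix metalloproteinase, had 9, 11 and 18 counts in parent and 234, 220 and 214 in ADRr libraries (16.6-fold, edgeR adjusted p = 1.04e-13). MMP9 passed the filter on low counts only through its ADRr libraries, so its call as higher adds no support. VEGFA, the angiogenic growth factor, rose 5.36-fold (edgeR adjusted p = 7.82e-21). BIRC5, the mitotic protein survivin, was lower (log2 -1.73 ± 0.06 SE, edgeR adjusted p = 8.12e-17), as was SOCS3 itself.

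Of 12 STAT5 targets, 9 were tested, 2 rose (22.2%) and 3 fell (33.3%), near the shares of all tested genes (median log2 -0.32). Besides SOCS2, CCND2, a D-type cyclin, went up from 0, 3 and 1 counts to 39, 53 and 66 counts (edgeR adjusted p = 2.07e-08). It passed the filter on low counts only through its ADRr libraries. PIM2, a survival kinase, fell by 1.22 on the log2 scale (edgeR adjusted p = 3.30e-10). Of 12 STAT6 targets, only 6 were tested; IL4R, the IL-4 receptor, rose 1.52-fold (edgeR adjusted p = 3.69e-08) and TGM2, transglutaminase 2, fell by 1.82 on the log2 scale (edgeR adjusted p = 3.74e-19), with the other 4 not called.

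**Figure D5:**
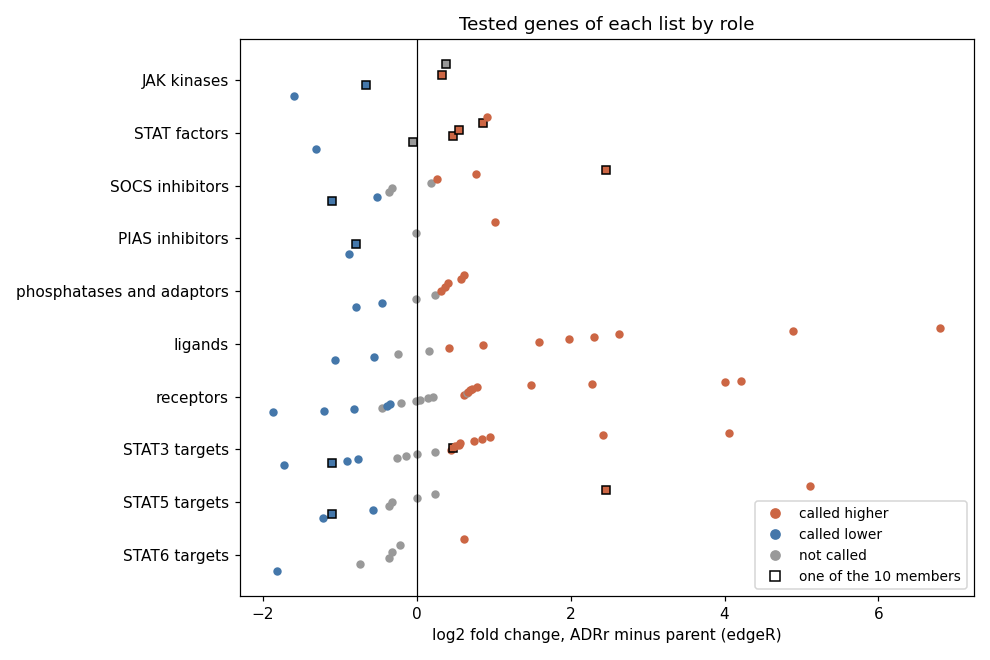
Log2 fold change (horizontal axis, ADRr minus parent) of the tested genes of each list shown, 1 row per list; squares with a black edge are the 10 genes of the report, and colours give the call. Ligands reach farthest to the right, with a median of 1.22, and every list shown holds genes on both sides of 0. The ligand median includes IFNL1 and IL7, which passed the filter on low counts only through ADRr libraries.

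The sites that STATs bind were looked for in RefSeq promoter windows (GRCh38.p14, 250 bases before to 50 bases after an annotated start), because the calls above include known targets. TTCNNNGAA, the usual STAT site, is found in 2689 of 35116 windows (7.66%), and the same ends spaced by 4 bases, which STAT6 prefers, in 2261 (6.44%). Each pattern reads the same on both strands. The table holds 17 windows for 9 of the 10 genes and none for SOCS2. None of the 17 holds TTCNNNGAA, and 1, of STAT5A, holds the wider site. Among the listed genes, 1 of 6 SOCS windows (CISH), 2 of 14 windows of STAT3 targets (ICAM1 and IRF1), 2 of 13 of STAT5 targets (CISH and BCL6), and 3 of 14 of STAT6 targets hold TTCNNNGAA, as do 4 of 14 ligand and 5 of 41 receptor windows. The wider site that STAT6 prefers is in 1 of 14 windows of STAT6 targets (7.14%), near the share of all windows. The printed stretches show upstream matches in capitals within their flanks, for the STAT5A match, the CISH cluster and the targets ICAM1, IRF1 and BCL6, which are named for their matches.
STAT5A: ttttttttttTTCCTCTGAAgttaaaagaa
CISH site a: cgccccgttTTCCTGGAAagttcttgga
CISH site b: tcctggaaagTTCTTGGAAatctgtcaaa
CISH site c: cagcccgcggTTCTAGGAAgacgctgctt
CISH site d: aagacgctgcTTCCGGGAAgggctggaac
ICAM1: ggcgcgaggtTTCCGGGAAagcagcaccg
IRF1: acagcctgatTTCCCCGAAatgacggcac
BCL6: gaagctcaaaTTCCGAGAAttgagctctg
The STAT5A match lies at chr17:42287200-42287229 on the plus strand, at -229 from an annotated start, and those of CISH on the minus strand of chromosome 3 at -241, -230, -129 and -112, site a at chr3:50611997-50612024. ICAM1 (chr19:10271035-10271063, plus strand, -75), an adhesion molecule, and IRF1 (chr5:132490879-132490907, minus strand, -124), an interferon-induced transcription factor, rose by 0.56 and 0.55 on the log2 scale (edgeR adjusted p = 6.75e-10 and 8.75e-08). BCL6 (chr3:187745478-187745506, minus strand, -28), a transcriptional repressor, fell by 0.56 on the log2 scale (edgeR adjusted p = 6.26e-06), and CISH was not called. CISH and BCL6 had 4 matches each, of which 3 in BCL6 reach into the transcript and are not printed. Genes with a match thus moved in both directions or not at all, and a match describes the letters of the window and no binding.

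The genes whose pattern over the 6 libraries lay nearest to a member were found by the root mean square distance of centred log2 CPM, among the 10869 tested genes whose mean normalized count reached 100. For STAT3 these were ECE1 (distance 0.0182), CLTCL1 (0.0233) and ATXN2L (0.0251), and for JAK2 they were HDAC11 (0.0778), C1orf35 (0.0917) and NSUN7 (0.0933). For SOCS2 they were USP25 (0.0684), DOCK9 (0.0760) and NAMPT (0.0787), and for SOCS3 they were TYMS (0.0316), AC006058.4 (0.0426) and EPS8L2 (0.0427). All 6 libraries enter each distance, so it mostly reflects the difference between the groups.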

How the data were processed

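According to the study's methods, polyadenylated RNA was made into CORALL libraries and sequenced as paired-end reads of 150 bases, and per the labels the submitters' processing notes name fastp, HISAT2 2.0.5, featureCounts 1.5.0-p3, DESeq2 1.20.0 and GRCh38. The authors deposited whole-number counts per gene, which were used for all tests, and FPKM values, which were used for levels between genes. Identifiers and exon lengths of all 58735 genes equal those of GENCODE 29. Whether counting used strand, and how reads with several matches were treated, is not given in the sources used here.

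Counts of genes kept by filterByExpr were scaled by TMM and tested in edgeR 4.0.16 (R 4.3.3) with the quasi-likelihood test, without covariates and over the whole table, and the procedure was tested on simulated data. Ratios of FPKM were compared with a two-sided exact permutation test. Sequences were handled with Biopython 1.88 and GENCODE or RefSeq tables.

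Named genes were the 10 members, the JAK, STAT, SOCS and PIAS genes, in each other list the called genes with the 2 largest increases and 2 largest decreases, the 3 nearest patterns of 4 members, and expressed genes with exons shared with a member. The members and lists were chosen with earlier results of these data known. Alternatives were DESeq2 1.42.0, its size factors or library size alone in edgeR, no filter, a minimum of 10 counts per library, limma-trend (limma 3.58.1) on log2(FPKM + 1) or log2(FPKM + 0.1) with a mean FPKM of at least 0.5 or none, a replicate block, each library left out, and other fold thresholds. Some items covered by these rules are not reported here.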

Additional observations from a re-analysis of the deposited data

How the results depend on the processing

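Called directions of JAK1, TYK2, STAT3, STAT5A, STAT6, SOCS2, SOCS3 and PIAS3 and their side of the threshold were the same under all 15 alternatives of tool, scaling, filter, unit, block and left-out library. The number of members called ran from 5 to 6 higher, with 3 lower throughout, with a library left out, the sixth being JAK2. For the pathway list it ran from 30 to 32 higher and from 14 to 17 lower, and for all tested genes from 4297 to 4483 higher and from 4375 to 4610 lower. Read as a threshold of 1.2 on the log2 scale, the fold change left 1 member higher (SOCS2) and 0 lower in edgeR, where 6 and 3 had an unadjusted p under 0.05, and adjusted p alone gave 5 and 3. The same threshold left 11 pathway genes higher and 4 lower, and 1114 and 972 of all tested genes. With STAT5A and STAT5B summed, the log2 fold change of 0.15 was not called for STAT5A and had the opposite sign to STAT5B alone, since the sum holds the STAT5A counts.

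The sample numbers do not pair the groups: deviations of same-numbered libraries correlated at 0.00735, -0.0213 and -0.0457. With a replicate block 5 members were higher and 3 lower, 31 and 15 pathway genes, and 4406 and 4464 of all tested genes. Depth limits JAK2, JAK3, STAT4, CISH, SOCS1 and parental SOCS2, which had under 150 counts per library, and several ligand, receptor and target genes.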

Other observations

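Of the 79 pathway genes, 14 had too few reads to be tested. Among them, IL20 and IL19, the IL-10 family cytokines that neighbour IL24, had 0 counts in every parent library and 3, 0 and 11 and 3, 1 and 0 counts in the ADRr libraries. OSM, oncostatin M, had 1 count in all, and TSLP, IFNB1, GHR and PTPRT had 0 counts in all 6 libraries. The growth hormone receptor, a main input to STAT5 and SOCS2 in other tissues, was thus not detected at this depth, where 3 counts would be 0.164 to 0.188 CPM.

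Genes within 500 kb of each member were counted after the data had been seen. Of all tested genes, 29.2% were called higher and 29.6% lower. Whether the neighbours of a member differ from these shares was not tested. STAT5B, STAT5A and STAT3 lie within 189401 bases, so their windows overlap and share neighbours, and their counts are not separate observations. Of 8 tested neighbours of JAK2, 4 were called higher and 1 lower (median log2 0.33, against 0.38 for JAK2), and of 6 neighbours of JAK1, 0 and 3 (median -0.27, against 0.32 for JAK1). Of 8 tested neighbours of SOCS2, 3 were called higher and 3 lower (median log2 0.40, against 2.46 for SOCS2). Of 22 neighbours of STAT6, 5 were higher and 9 lower (median -0.13), of 38 neighbours of STAT3, 12 and 14 (median 0.00), of 36 neighbours of STAT5A, 9 and 15 (median -0.14), of 33 neighbours of STAT5B, 8 and 16 (median -0.25), and of 15 neighbours of SOCS3, 6 and 4 (median 0.19). Of 27 neighbours of TYK2, 3 were higher and 11 lower (median -0.18), and of 17 neighbours of PIAS3, 5 and 2 (median 0.07).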
